A study of Mus musculus with 10 samples.

Results

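The step from the monocyte-dendritic cell progenitor (MDP) to the common dendritic cell progenitor (CDP) of mouse bone marrow was examined by comparing where chromatin was open in the 2 wild-type (WT) MDP and the 2 WT CDP libraries, 4 of the 10 libraries of the series. Overlapping peaks of the 4 libraries (1 bp sufficed; chromosomes 1 to 19 and X) were joined into 85010 regions. A region with a peak in both CDP libraries and in neither MDP library was called gained, and the reverse was called lost. There were 7465 gained and 4253 lost regions, and 45747 regions had a peak in all 4 libraries.

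The assay was ATAC-seq, in which a transposase inserts sequencing adapters into open DNA, so that a peak marks accessible chromatin and not transcription. All cells came from bone marrow of C57BL/6 mice and were obtained by magnetic enrichment followed by flow cytometric sorting, with 5000 to 7200 cells per sort. The labelled MDP gate was lineage-negative (Lin-), Sca-1-, CD117+, IL-7R- and CD115+, with no entry for CD135, and the CDP gate was Lin-, Sca-1-, CD117 intermediate, IL-7R-, CD115+ and CD135+. The other libraries, used here for comparison, were WT long-term hematopoietic stem cells (LT-HSC; Lin-, CD117+, Sca-1+, CD135-, CD48-, CD150+), WT lymphoid-primed multipotent progenitors (LMPP; Lin-, CD117+, Sca-1+, CD135+, with titles that say LMPP and a cell type field that says short-term stem cells) and MDP from mice lacking IRF8 (IRF8KO MDP; the MDP gate), with 2 libraries each. The design text calls WT libraries of a cell type biological duplicates, the labels tie no library to an animal, and they name no treatment.

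As background, MDP can give rise to monocytes and macrophages as well as dendritic cells, whereas CDP are largely restricted to dendritic cells. Dendritic cells present antigen to T cells. They comprise conventional dendritic cells of type 1 (cDC1, which depend on IRF8, BATF3 and ID2), conventional dendritic cells of type 2 (cDC2) and plasmacytoid dendritic cells (pDC, which depend on the E protein TCF4). IRF8 is a transcription factor that favours monocyte and dendritic fates over granulocytes, and binds composite DNA elements together with the ETS factor PU.1.

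The promoters below are shown because their accessibility differed between the stages at genes with well-known roles on either side of this step. Each is the RefSeq window of build GRCm38.p6 from 250 bases before to 50 after the start, written 5′ to 3′ on the gene's strand. They were picked after their values were seen. Capitals mark matches, on either strand, to any of 10 short motifs, of which those found here are GGAANNGAA (an ETS-IRF composite element), GAGGAAGT (a PU.1 core), TTGCNNAA (a C/EBP palindrome), CAGGTG (an E-box), GGGCGG (a GC box) and AGGGGGC (a CTCF core). A match describes the letters and is not evidence of binding.
Ccl22 chr8:94745434-94745733 (plus strand): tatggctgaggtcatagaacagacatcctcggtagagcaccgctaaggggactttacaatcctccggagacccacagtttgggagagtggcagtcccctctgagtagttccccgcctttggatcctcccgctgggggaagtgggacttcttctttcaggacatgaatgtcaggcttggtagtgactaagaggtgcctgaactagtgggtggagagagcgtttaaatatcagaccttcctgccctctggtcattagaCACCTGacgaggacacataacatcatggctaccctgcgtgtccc
Cd8a chr6:71373177-71373476 (plus strand): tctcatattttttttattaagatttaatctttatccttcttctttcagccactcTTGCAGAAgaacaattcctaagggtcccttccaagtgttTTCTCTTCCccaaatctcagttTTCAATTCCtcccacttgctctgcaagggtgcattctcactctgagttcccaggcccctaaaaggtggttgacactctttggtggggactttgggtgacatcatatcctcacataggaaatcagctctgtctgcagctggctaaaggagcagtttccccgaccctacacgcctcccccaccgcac
Cd209a chr8:3748935-3749234 (minus strand): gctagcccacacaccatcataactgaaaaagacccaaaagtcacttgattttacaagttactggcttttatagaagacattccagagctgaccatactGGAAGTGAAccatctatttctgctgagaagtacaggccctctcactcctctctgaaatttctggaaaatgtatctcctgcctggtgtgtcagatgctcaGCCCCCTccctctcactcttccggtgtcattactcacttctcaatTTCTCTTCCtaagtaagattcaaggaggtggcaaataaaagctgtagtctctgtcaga
Ms4a3 chr19:11640802-11641101 (minus strand): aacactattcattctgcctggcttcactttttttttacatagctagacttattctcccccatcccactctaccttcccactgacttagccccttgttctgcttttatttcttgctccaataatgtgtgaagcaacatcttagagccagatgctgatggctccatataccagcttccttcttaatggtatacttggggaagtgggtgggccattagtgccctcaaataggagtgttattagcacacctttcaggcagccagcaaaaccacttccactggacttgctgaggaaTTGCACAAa
Lcn2 chr2:32387690-32387989 (minus strand): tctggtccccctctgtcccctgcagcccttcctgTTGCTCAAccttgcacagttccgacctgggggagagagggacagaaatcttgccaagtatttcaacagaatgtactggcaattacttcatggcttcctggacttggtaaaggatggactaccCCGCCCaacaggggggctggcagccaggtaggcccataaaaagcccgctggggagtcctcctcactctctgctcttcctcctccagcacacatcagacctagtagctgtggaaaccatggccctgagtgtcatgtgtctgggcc
Prtn3 chr10:79879417-79879716 (plus strand): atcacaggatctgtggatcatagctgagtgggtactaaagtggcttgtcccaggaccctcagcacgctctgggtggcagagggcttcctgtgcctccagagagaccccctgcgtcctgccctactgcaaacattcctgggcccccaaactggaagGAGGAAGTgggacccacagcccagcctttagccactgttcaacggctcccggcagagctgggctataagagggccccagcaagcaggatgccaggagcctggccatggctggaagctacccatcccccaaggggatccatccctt
Ccl22, a chemokine of mature dendritic cells, had a gained region over its start, at rows 41337 and 40098 of the 2 CDP peak lists (rows count from the top of a list, which was taken to hold the strongest peaks). Its single match was the E-box, written as CACCTG from position 6, with positions counted from 0 at the start. Cd8a, which in dendritic cells marks the cDC1 lineage, had a gained region at rows 28590 and 35060, and its window held ETS-IRF matches at positions -157 and -135 and a C/EBP match at -196. Cd209a, a lectin of the DC-SIGN family used as a cDC2 marker, was open in all 4 libraries and rose from rows 35620 and 27090 in MDP to rows 13124 and 12582 in CDP. ETS-IRF matches stood at positions -152 and -8 of its window. None of the other 6 libraries had a peak over the Ccl22, Cd8a or Cd209a start.

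Ms4a3, a gene of granulocyte and monocyte progenitors, had a lost region over its start, at rows 22133 and 21787 of the MDP lists. Both IRF8KO MDP libraries had a peak there, at rows 12646 and 14796. Lcn2, an iron-siderophore-binding protein of neutrophil granules, was likewise lost, with MDP rows 52618 and 55059 and IRF8KO MDP rows 26650 and 25410. The Ms4a3 and Lcn2 windows each held a C/EBP match, at positions 41 and -216, as did that of the gained Spib start at -121, whereas the window of the lost Camp start held none. Prtn3, the granule protease proteinase 3, kept a peak in all 4 libraries (merged region 79879325 to 79885328) and moved from rows 4129 and 2153 in MDP to 11157 and 12906 in CDP, with IRF8KO MDP at rows 1892 and 349. Its window held a PU.1 core at position -95.

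The libraries differed in depth, and the number of gained against lost regions depended on it. Total tags were 5394861 and 5328234 in MDP and 10166833 and 7985428 in CDP, per the file headers, and the lists held 62117 and 64493 peaks in MDP and 69585 and 65472 in CDP. Percent of tags in peaks was 51.25 and 53.74 in MDP and 46.39 and 53.43 in CDP. The CDP lists reached to weaker sites. The smallest tag number of a peak, scaled to 10000000 tags, was 18.54 and 18.77 in MDP but 12.79 and 15.03 in CDP. With 2 libraries a group, the smallest p an exact permutation test can give is 0.33, which was the value for peaks, tags and this threshold (two-sided), and tags in peaks gave 0.667. Region counts therefore carry no p-value.

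In the full lists, 8.78% of regions were gained and 5.0% lost, a ratio of gained to lost of 1.76. After every list was shortened to the top 62117 rows, the length of the shortest, 6023 of 80123 regions were gained (7.52%) and 5080 were lost (6.34%), a ratio of 1.19. At 10000 rows the counts were 946 and 933, with a ratio of 1.01. Of the regions gained in the full lists, 5715 (76.6%) were also gained at equal length, and of those lost, 3983 (93.7%). At equal length the surplus turned when 1 MDP library was left out, with 8787 gained and 9015 lost without replicate 1 and 8550 and 8995 without replicate 2; each direction then asks for a different number of libraries. The tag threshold of the shortened lists was not measured, and depth and cell stage cannot be told apart in the surplus of gained regions.

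**Figure D1:**
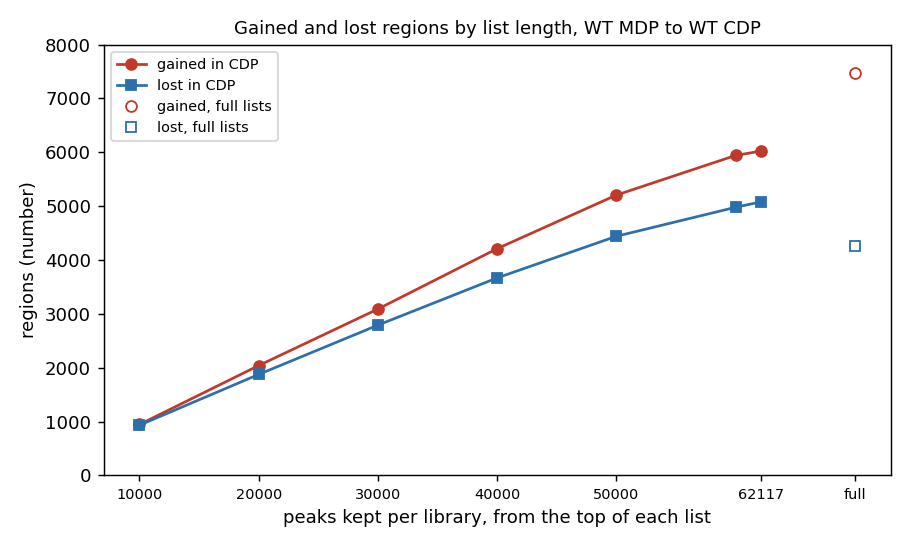
Number of gained (red circles) and lost (blue squares) regions between WT MDP and WT CDP against the number of peaks kept per library; open symbols are the full lists of unequal length. The counts were 946 and 933 at 10000 rows, 6023 and 5080 at 62117 rows, and 7465 and 4253 in the full lists.

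Replicates resembled each other more than they resembled the other stage. The share of regions found in both of a pair among those found in either was 0.769 for the MDP pair and 0.804 for the CDP pair, against 0.664 to 0.672 across the 4 MDP and CDP pairs. Over the regions of all 4 libraries, row order had a Spearman correlation across regions of 0.93 within MDP, 0.961 within CDP and 0.819 to 0.826 across stages. The genes of the surface proteins used as positive gates were accessible in every library. Csf1r (CD115), Flt3 (CD135) and Kit (CD117) had peaks within 1 kb of a gene end in all 4 libraries. So did Cx3cr1, a chemokine receptor gene of this lineage. Ly6a, which encodes Sca-1 and is gated out, had no peak at a gene end in any of the 4, nor did the neutrophil surface gene Ly6g. Il7r had a peak at a gene end in all 4 libraries and Cd3e in CDP replicate 1, so accessibility at these genes did not track the surface gate.

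Gained and lost regions were mostly weak sites away from promoters. Gained regions had a median row 73.1% and 76.9% of the way down the 2 CDP lists, and lost regions 75.8% and 73.4% down the MDP lists. Of the gained regions, 5.65% lay within 1 kb of the start or end of a gene that encodes a protein (95% Wilson interval 5.15 to 6.2%), against 8.02% of lost regions (7.24 to 8.87%) and 26.3% of regions in all 4 libraries (25.9 to 26.7%). Wilson intervals here cover counting error only. Over a RefSeq start lay 1.98%, 4.21% and 22.2% of them. Median widths were 632 bp for gained, 619 bp for lost and 1099 bp for shared regions.

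Regions lost at the CDP stage were largely open in MDP lacking IRF8, and gained regions were rarely open there. Of the lost regions, 66.7% and 70.4% had a peak in the IRF8KO MDP libraries (mean 68.5% ± 2.61, SD, n = 2), against 5.39% and 7.84% of the gained regions (6.61% ± 1.73, SD, n = 2) and 77.1% ± 1.57 (SD, n = 2) of the shared regions. In LMPP the shares were 47.5% ± 0.0831 of lost, 18.0% ± 0.0947 of gained and 77.4% ± 0.209 of shared regions (SD, n = 2). In LT-HSC, whose 2 libraries differed most in peak number, they were 28.4% ± 11.3, 5.97% ± 4.25 and 55.3% ± 11.9 (SD, n = 2). In each library the share of lost regions exceeded that of gained regions. IRF8KO MDP and WT MDP share a sort gate and a similar depth, and CDP do not, and the part of these in the result was not tested.

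**Figure D2:**
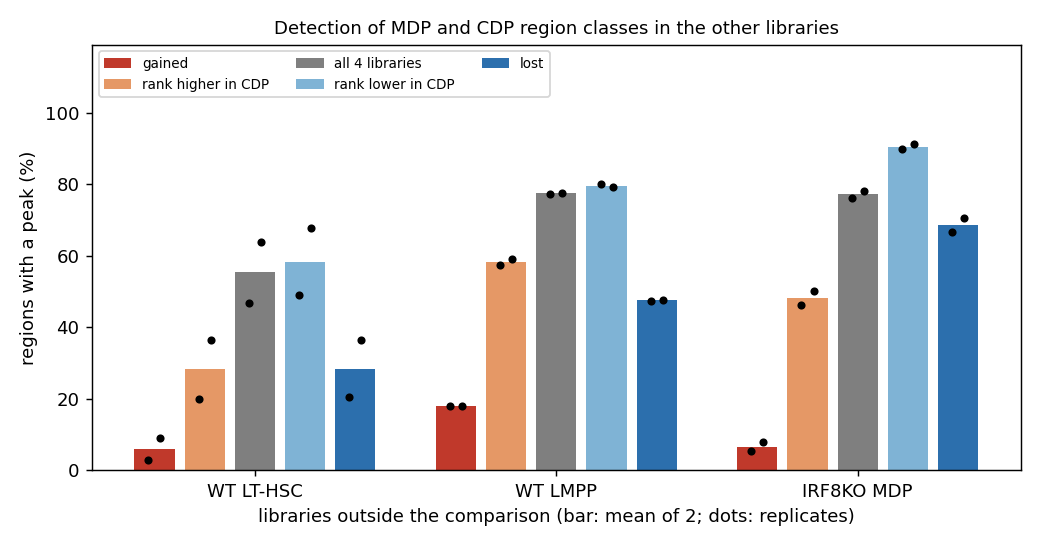
Percent of each region class that had a peak in the LT-HSC, LMPP and IRF8KO MDP libraries, none of which was used to define the classes; bars are means of 2 libraries and dots the single libraries. In IRF8KO MDP, the means were 6.61% for gained, 48.1% for regions higher in rank in CDP, 77.1% for all shared regions, 90.4% for regions lower in rank in CDP and 68.5% for lost regions.

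The contrast was also seen among peaks of like position in the CDP or in the MDP lists. The other stage could not be matched, since gained regions by definition had no peak in WT MDP and lost regions none in WT CDP. The part of this rule in the shares below was not tested. Between rows 30000 and 50000 of the CDP lists, 5.93% ± 1.34 of 3068 gained regions and 65.4% ± 2.05 of 12988 shared regions had a peak in IRF8KO MDP (SD, n = 2). Within the same rows of the MDP lists, 77.7% ± 2.22 of 2169 lost regions had one, above the 60.9% ± 3.01 of 14211 shared regions (SD, n = 2). In LMPP the order of the latter was opposite, with 48.8% ± 0.0978 of lost and 61.5% ± 0.308 of shared regions (SD, n = 2).

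The regions could also be sorted by where else they were open. Of the gained regions, 5278 (70.7%) had no peak in any of the other 6 libraries, against 413 (9.71%) of the lost and 9.72% of the shared regions. Those 6 libraries had 4790046 to 6478095 tags, fewer than either CDP library. Their scaled tag thresholds were 16.98 to 20.88, against 12.79 and 15.03 in CDP. The part of depth in these shares was not tested. A further 590 gained regions (7.9%) were open in both LMPP libraries and neither LT-HSC library, so they had peaks in LMPP and CDP but not in MDP. That pattern in LMPP and LT-HSC was found in 12.4% of the lost and 13.2% of the shared regions. Lost regions open in both IRF8KO MDP libraries but in no LMPP or LT-HSC library numbered 1238 (29.1%), against 104 (1.39%) of the gained and 5.48% of the shared regions. Another 787 lost regions (18.5%) were open in all LMPP and LT-HSC libraries, beside 2.05% of the gained and 45.4% of the shared regions.

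Few changed regions were strong. Only 18 gained regions lay in the top 25% of both CDP lists, and 14 lost regions in the top 25% of both MDP lists. All 14 lost regions had a peak in both IRF8KO MDP libraries, whereas none of the 18 gained regions had one in either, nor in either LMPP library. A count of 0 of 18 is a small sample and allows a share of up to 16.7%. The gained region of best rank (chromosome 11, 45116193 to 45117608; CDP rows 8922 and 7885) lay 109 kb from Ebf1, a B-lineage transcription factor gene, and no other library had a peak there. Next came regions 31.3 kb from Gatd3a, inside the sulfotransferase gene Chst11 (CDP rows 11846 and 12596), 9.17 kb from Vgll4, a transcriptional cofactor gene, and 59.8 kb from Lrpap1.

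Among the lost regions of best rank, one inside Nlrc5, a regulator of MHC class I genes, was at MDP rows 12409 and 14319 and IRF8KO MDP rows 8130 and 8376. One 3.82 kb from Nampt, which encodes an enzyme of NAD synthesis, was at MDP rows 14212 and 12331 and IRF8KO MDP rows 6269 and 4116. Neither had a peak in LMPP or LT-HSC. One inside Gramd1b had a peak in all 6 other libraries, at rows 380 and 1137 of LMPP and 10315 and 12512 of MDP. Sema3c, a semaphorin gene, had 3 peaks in each MDP library and none in CDP. These loci show 2 histories among lost regions, one shared with stem and multipotent cells and one confined, among these libraries, to the MDP gate.

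Transcription factor genes of the dendritic lineage had a share of gained regions near that of all regions and a smaller share of lost regions. Regions were assigned to the nearest protein-coding gene within 100 kb, and 24 such factors had 418 regions, of which 41 were gained (9.81%, beside 8.78% of all regions) and 14 lost (3.35%, beside 5.0%). The net of 27 fell to 16 at equal length and to 11 with genes within 20 kb. Per library they had 292 and 291 detected regions in MDP and 357 and 335 in CDP. The CDP to MDP ratio of mean detected regions was 1.19 for this list and 1.08 for all genes. At equal list length it was 1.12 against 1.02. By gene, 13 had a net gain, 2 a net loss and 9 neither, beside net gains at 23.0% and net losses at 12.2% of all 16331 genes with regions. These genes had 17.4 regions each, against 4.85 for all genes, which makes a net change easier to reach. The gained regions were open in neither IRF8KO MDP library for 36 of 41, beside 6097 of 6826 gained regions over all genes.

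Irf8 itself (gene 15900; chromosome 8, 120736358 to 120756694) had 21 and 17 regions with a peak in MDP and 26 and 23 in CDP. Of its 32 regions, 8 were gained and 3 lost. A region centred 38.1 kb from the start in the direction of transcription was gained at CDP rows 24736 and 24066, and one at 76.4 kb at rows 26580 and 33780. Neither had a peak in any other library. The lost regions at 4.76 and 53.0 kb had peaks in both IRF8KO MDP libraries, and that at 64.3 kb had none. Among the 13 regions open in all 4 libraries, 5 stood higher and 1 lower in the CDP order. The lower one, at 56.7 kb, was the strongest in MDP, with rows 2988 and 2822, and moved to rows 7685 and 8146 in CDP. The region over the start was at rows 9773 and 9299 in MDP, 8419 and 11198 in CDP, and 12779 and 16370 in IRF8KO MDP, so peaks there do not check the knockout label.

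**Figure D3:**
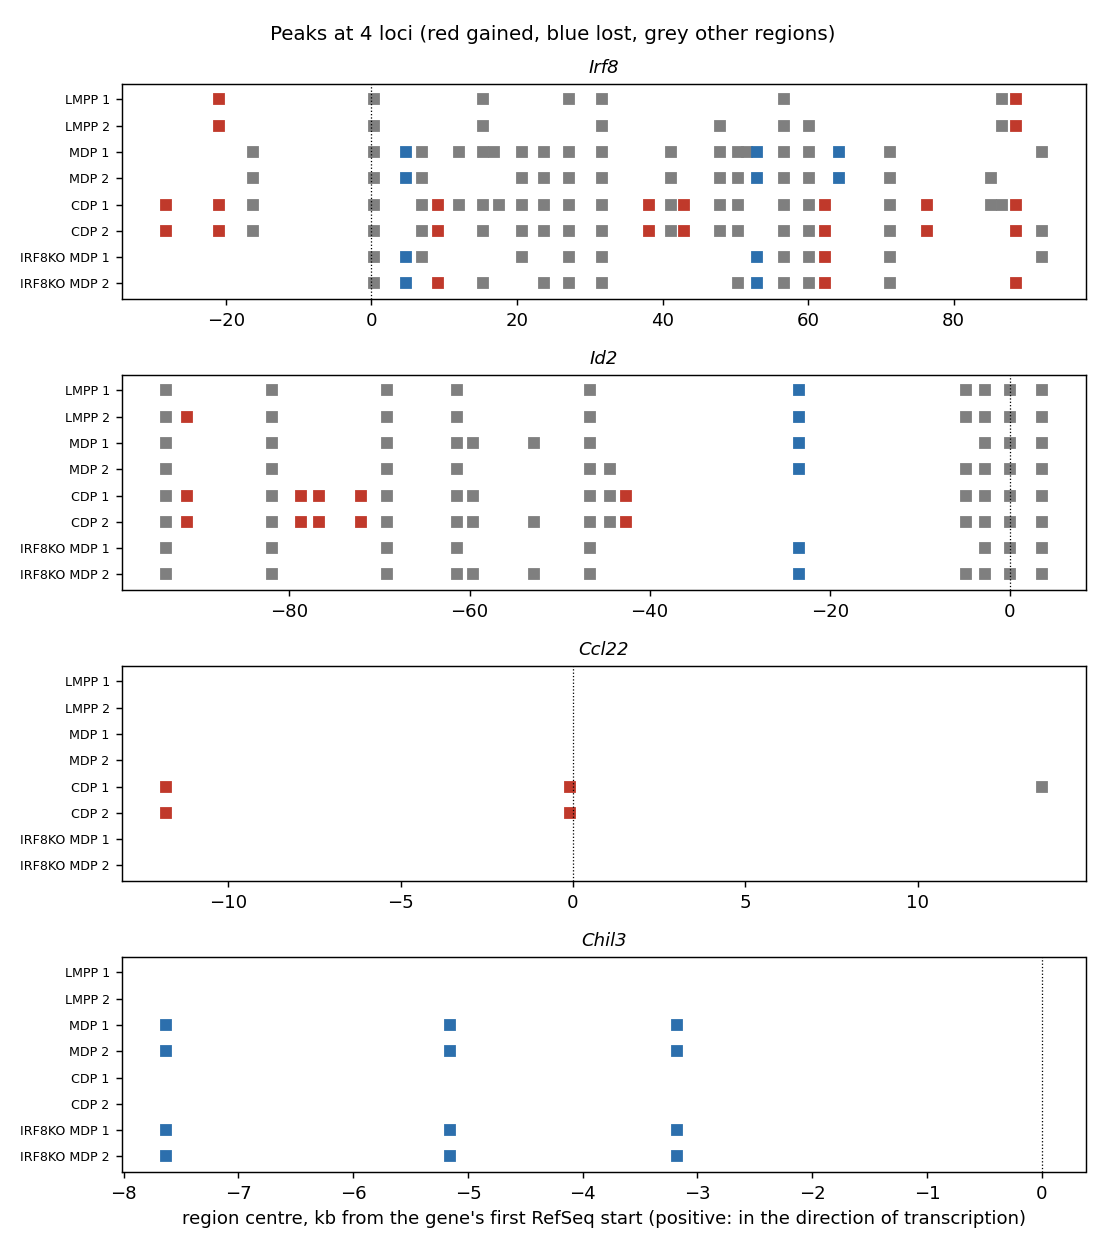
Regions with a peak at Irf8, Id2, Ccl22 and Chil3 in 8 libraries (rows), against the distance of the region's centre from the gene's first RefSeq start in kb; red squares are gained, blue lost and grey other regions. Irf8 had 8 red and 3 blue positions, Id2 had 5 and 1, Ccl22 had 2 red, and the 3 blue positions of Chil3 were filled in MDP and IRF8KO MDP only.

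Id2, an inhibitor of E proteins needed for cDC1, had 11 and 11 regions in MDP and 16 and 17 in CDP. All 5 gained regions lay upstream, between -42.6 and -91.4 kb, at CDP rows 35415 to 62261, and none had a peak in IRF8KO MDP. The lost region at -23.4 kb had a peak in all 10 libraries except the 2 CDP ones, at rows 3767 and 5383 in LT-HSC and 30421 and 50868 in MDP. Tcf12, an E protein gene, had 9 and 9 regions in MDP and 18 and 15 in CDP, with 6 gained and 0 lost. Tcf4, the E protein gene of pDC, had 26 and 27 in MDP and 30 and 30 in CDP, with 2 gained and 2 lost of 38. Zeb2, a repressor that acts in pDC and cDC2 development, gained 3 of 14 regions, with 9 and 9 in MDP and 13 and 13 in CDP. Zfp366, which encodes the dendritic factor DC-SCRIPT, gained 3 of 19, with 8 and 8 in MDP and 15 and 14 in CDP, and 2 and 2 in IRF8KO MDP. The MDP and CDP counts did not overlap for Id2, Tcf12, Tcf4, Zeb2 or Zfp366. Nor did the totals over all genes, with 56505 and 58440 in MDP and 64506 and 60194 in CDP. The share of single genes without overlap was not counted. At equal length Tcf4 had 1 gained and 2 lost regions.

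Changes also occurred by rank within regions that never lost their peak. Regions of all 4 libraries were re-ranked among themselves in each library, and a region was called higher in CDP when both CDP percentiles exceeded both MDP percentiles by at least 10 points. Over 45747 regions, 5323 stood higher (11.6%) and 5290 lower (11.6%). Zbtb46, a zinc finger factor of conventional dendritic cells, had no gained or lost region, with 10 and 11 regions in MDP and 11 and 11 in CDP. Yet 5 of its 10 shared regions stood higher and 0 lower. The region centred -12.2 kb from its first start rose from percentiles 63.3 and 72.5 in MDP to 93.1 and 94.4 in CDP, with no peak in IRF8KO MDP. Zfp366 had 4 of 7 shared regions higher and 0 lower, and the one at the gene's edge went from percentiles 47.4 and 16.2 to 69.7 and 81.5. Dendritic factor genes together had 42 of 230 shared regions higher (18.3%) and 20 lower (8.7%). Batf3 had 1 higher and 0 lower of 7, and no gained or lost region in full lists (1 lost at equal length).

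Rank higher regions were detected in IRF8KO MDP at 48.1% ± 2.62 and rank lower regions at 90.4% ± 0.869 (SD, n = 2), on either side of the 77.1% of all shared regions. In LMPP these shares were 58.2% ± 1.01 and 79.6% ± 0.388 (SD, n = 2). Both classes were open in all 4 libraries used to define them, but by definition they differ in list position, whose part in these shares was not tested. Foxp1, a forkhead factor gene, had 13 of 35 shared regions higher and 1 lower, Sgms1, a sphingomyelin synthase gene, 12 of 24 higher and 0 lower, and Gask1b 8 of 10 higher and 0 lower. In the other direction, Vps13d, a lipid transfer protein gene, had 9 of 21 lower and 0 higher, Ltbp1, which encodes a TGF-beta-binding matrix protein, 8 of 9, and Nfia, a transcription factor gene, 6 of 25.

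Of the dendritic lists, cDC1 genes had the largest share of gained regions. Of 203 regions at 25 genes, 34 were gained (16.7%) and 6 lost (2.96%). In full lists 13 genes had a net gain and 0 a net loss, and at equal length Batf3 had a net of -1. Over all genes with regions, 23.0% had a net gain and 12.2% a net loss. The cDC1 genes had 8.12 regions each, against 4.85 for all genes, which makes a net change easier to reach. Per library, 133 and 128 regions were detected in MDP and 176 and 166 in CDP, a ratio of means of 1.31 in full lists and 1.23 at equal length. The list includes Irf8 and Id2. Cadm1, an adhesion molecule of cDC1, had 8 and 11 regions in MDP and 19 and 17 in CDP, with 5 gained and 0 lost. Clnk, a signalling adaptor, had 13 and 13 in MDP, 19 and 18 in CDP and 4 and 6 in IRF8KO MDP. Its regions included 6 gained and 2 lost. Xcr1, the chemokine receptor that marks cDC1, gained 1 of 4 regions, and Btla, an inhibitory receptor, 2 of 12 (1 at equal length). Clec9a, a receptor for dead cells, gained and lost 0 of 3. Among shared regions of the list, 19 of 98 stood higher (19.4%) and 10 lower (10.2%).

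Antigen presentation genes also gained regions, with 20 gained (13.2%) and 1 lost (0.658%) of 152. The 30 genes included 11 with a net gain and 0 with a net loss in full lists, beside 23.0% and 12.2% of all genes. The 1 lost region lay over the start of Adam23, which had a net of -1 at equal length. None of the 20 gained regions was open in both IRF8KO MDP libraries and 17 were open in neither. Over all genes these numbers were 211 and 6097 of 6826 gained regions, so the antigen presentation genes did not stand out in IRF8KO MDP. Both LMPP libraries had a peak at 6 of the 20 gained regions, beside 925 of the 6826 over all genes. Detected regions numbered 105 and 113 in MDP and 141 and 133 in CDP, a ratio of 1.26, and 1.21 at equal length. Ciita, the master regulator of MHC class II genes, had 4 and 6 regions in MDP, 9 and 10 in CDP, and 0 and 2 in IRF8KO MDP. Of its 11 regions 4 were gained and 0 lost. The shared region at its gene end (chromosome 16, 10479568 to 10480497) went from percentiles 10.2 and 6.24 in MDP to 49.8 and 55.2 in CDP, and none of the other 6 libraries had a peak there. H2-Aa, H2-Ab1, H2-DMa and H2-Oa, of the MHC class II locus, each gained 1 region and lost 0. All 4 regions of H2-Aa and all 3 of H2-Ab1, gained ones included, had a peak in both LMPP libraries.

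Cst3, which encodes cystatin C, abundant in dendritic cells, had 4 and 4 regions in MDP and 7 and 6 in CDP, with 2 gained of 7. Ccl22 had no peak in either MDP library, and 3 and 2 in CDP. Besides the start, a region at -11.8 kb was gained at CDP rows 24730 and 25571. Cd83, a surface marker of mature dendritic cells, had 6 and 9 in MDP and 11 and 10 in CDP. Ccl17, the chemokine gene beside Ccl22, had no gained region but 2 of its 4 shared regions stood higher.

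Genes of cDC2 and pDC had lower shares of gained regions than cDC1 genes. Genes of cDC2 had 8 of 138 regions gained (5.8%), below the 8.78% of all regions, and 2 lost (1.45%), with 5 gained and 2 lost at equal length. Detected regions numbered 95 and 102 in MDP and 120 and 118 in CDP, a ratio of 1.21, and 1.14 at equal length. Their shared regions stood higher in 13 of 87 (14.9%) and lower in 5 (5.75%). pDC genes had 27 of 253 gained (10.7%) and 8 lost (3.16%), and detected regions numbered 184 and 187 in MDP and 218 and 198 in CDP. The ratio of 1.12 for pDC genes fell to 1.06 at equal length, beside 1.02 for all genes. At equal length 19 of their regions were gained (7.92%, beside 7.52% of all regions) and 12 lost (5.0%, beside 6.34%). Spib, an ETS factor of pDC, had a gained region over its start at CDP rows 29074 and 31280. Lair1, an inhibitory collagen receptor, had 9 and 9 regions in MDP and 13 and 13 in CDP, with 4 gained (2 at equal length), and Paqr5 11 and 13 against 18 and 15, with 3 gained. Other members of the pDC list went the other way. Ptcra lost its only region, and Cox6a2, Pacsin1, Cd300c, Dntt and Tcf4 had a net of -1 at equal length. In full lists 11 pDC genes had a net gain, 2 a net loss and 15 neither. Over all genes with regions, 23.0% had a net gain and 12.2% a net loss. The pDC genes had 9.04 regions each, against 4.85 for all genes.

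**Figure D4:**
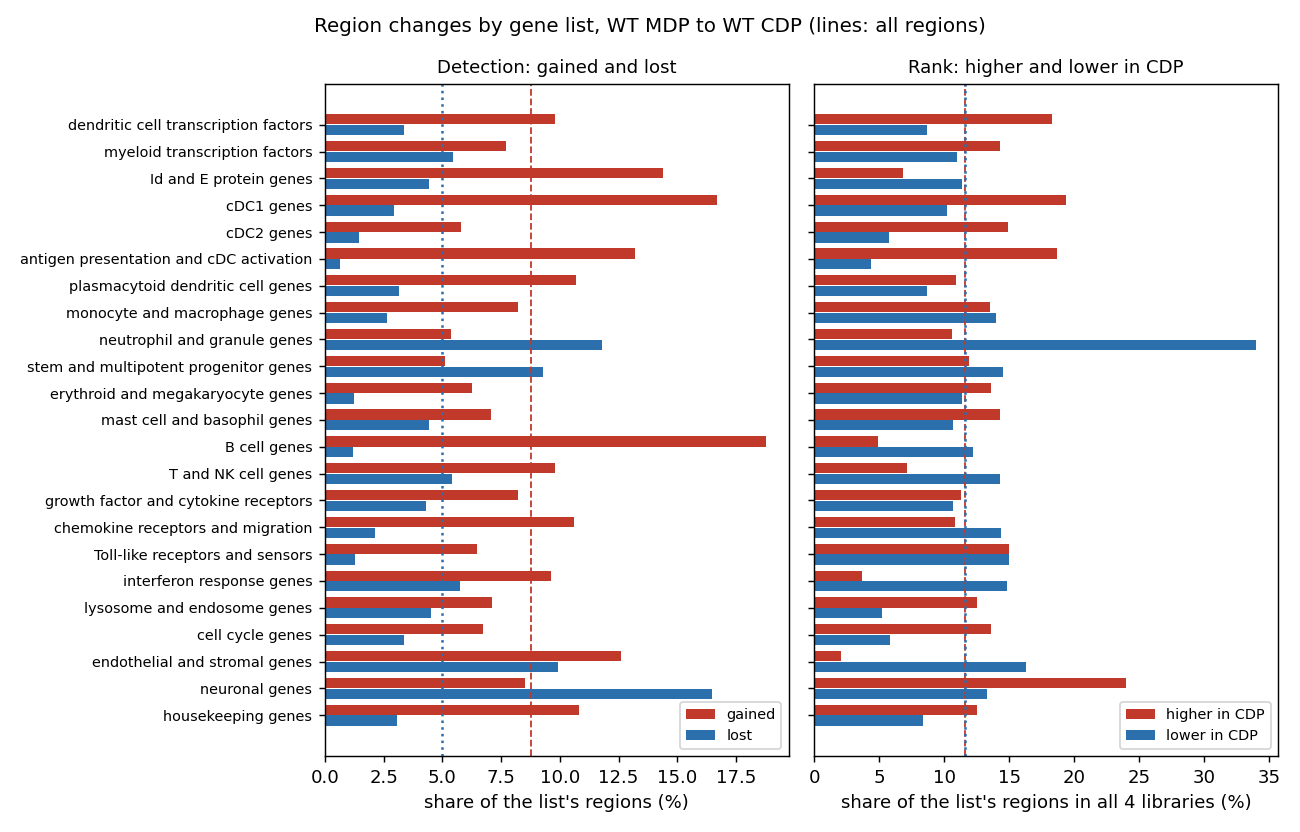
For each gene list, percent of its regions gained (red) or lost (blue) in the left panel and, among its regions open in all 4 libraries, percent higher (red) or lower (blue) in rank in CDP in the right panel; dashed and dotted lines mark all regions (8.78% gained, 5.0% lost, 11.6% higher, 11.6% lower). Genes of cDC1 and antigen presentation had more gained than lost regions, and neutrophil genes more lost than gained (11.8% against 5.38%) and more lower than higher (34.0% against 10.6%).

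Neutrophil and granule genes went the other way. Of 93 regions at 25 genes, 11 were lost (11.8%) and 5 gained (5.38%), and 10 genes had a net loss and 4 a net gain. Over all genes with regions, 12.2% had a net loss and 23.0% a net gain. Neutrophil genes had 4.04 regions each, against 4.85 for all genes. The net of -6 was -2 without WT CDP replicate 2. Detected regions numbered 69 and 72 in MDP and 68 and 64 in CDP, a ratio of 0.936, and 0.92 at equal length. Of 47 shared regions, 16 stood lower in CDP (34.0%) and 5 higher (10.6%). Mmp8, neutrophil collagenase, lost 2 of 6 regions, and its 4 shared regions all stood lower. The one over its start went from rows 4186 and 5483 in MDP to 12975 and 15375 in CDP. The single region of Camp, the cathelicidin gene, was lost, as was that of Lcn2. Camp was at MDP rows 45837 and 38509 and IRF8KO MDP rows 11254 and 10211. Of the 11 lost regions, 9 were open in both IRF8KO MDP libraries, beside 2294 of 3782 lost regions over all genes. Cd177, a neutrophil surface protein gene, ran against the list with 2 gained of 5, and the granulocyte colony-stimulating factor receptor gene Csf3r gained 1 of 8 in full lists and 0 at equal length.

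Monocyte and macrophage genes had shares near those of all regions, apart from fewer losses. They had 25 of 304 regions gained (8.22%, beside 8.78%) and 8 lost (2.63%, beside 5.0%). Shared regions stood higher in 23 and lower in 24 of 171, beside 11.6% each way over all shared regions. All 8 lost regions were open in both IRF8KO MDP libraries. Chil3, a chitinase-like protein of myeloid cells, had 3 regions upstream of its start, all with peaks in both MDP and both IRF8KO MDP libraries and in none of the other 6. The nearest, at -3.18 kb, was at rows 14992 and 17859 in MDP and 9694 and 8315 in IRF8KO MDP. F13a1, the coagulation factor XIII gene of monocytes, gained 4 of 21, with 12 and 10 regions in MDP and 18 and 16 in CDP. Csf1r, the macrophage colony-stimulating factor receptor, had 3 and 5 regions in MDP and 7 and 8 in CDP, with 2 gained inside the gene (1 at equal length), and Cx3cr1 6 and 7 against 9 and 8.

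Stem and multipotent progenitor genes had 29 of 313 regions lost (9.27%, beside 5.0% of all regions) and 16 gained (5.11%, beside 8.78%). The net of -13 was -1 without WT CDP replicate 2. Detected regions numbered 237 and 238 in MDP and 230 and 208 in CDP, a ratio of 0.922, and 0.861 at equal length. Nfia lost 5 of 44 regions and gained 1, and Lmo2, a hematopoietic LIM-domain cofactor, lost 4 of 16 and gained 1. Kit, the stem cell factor receptor, ran the other way with 12 and 13 regions in MDP and 18 and 14 in CDP, with 2 gained (1 at equal length) and 0 lost. Spi1, which encodes PU.1, had 7 and 7 in MDP and 5 and 5 in CDP. Neuronal genes, chosen as genes without a known role in these cells, lost 29 of 176 (16.5%) and gained 15, and 21 of the 29 were open in both LMPP libraries, beside 1571 of 3782 lost regions over all genes and 14 of the 29 at stem cell genes. The neuronal net of -14 was -7 without WT CDP replicate 2. Their shared regions went the other way, with 18 of 75 higher and 10 lower.

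Markers of cells that the gates remove did not all stay still. B cell genes had 16 of 85 regions gained (18.8%) and 1 lost (1.18%), with 55 and 58 detected in MDP and 74 and 73 in CDP (ratio 1.3, and 1.2 at equal length). At equal length 10 were gained. Ebf1, Blnk and Bank1 gained 3 each and Il7r 2, and at equal length Ebf1 and Bank1 still 3 each, Blnk 1 and Il7r 0. Their shared regions stood higher in 2 and lower in 5 of 41. Cd79a and Vpreb1 had no region in any of the 4 libraries. Endothelial and stromal genes had 14 gained and 11 lost of 111, erythroid and megakaryocyte genes 5 and 1 of 80, mast cell and basophil genes 8 and 5 of 113, and T and NK cell genes 9 and 5 of 92. Housekeeping genes had 7 gained and 2 lost of 65 and a ratio of 1.13, or 1.1 at equal length. A change in the mix of sorted cells and a change within cells cannot be told apart in bulk libraries, and the part of these markers in the results above was not tested.

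Ranked over all genes, the largest net gains and losses fell partly outside the fixed lists. Arhgap26, a GTPase-activating protein gene, had 29 and 31 regions in MDP and 45 and 48 in CDP, with 13 gained and 2 lost. Camk1d, a calcium-dependent kinase gene, had 17 and 17 in MDP, 31 and 25 in CDP and 6 and 7 in IRF8KO MDP. Septin3, of the septin cytoskeletal family, had 1 and 1 in MDP and 7 and 7 in CDP, with 6 of 8 gained and 0 and 1 in IRF8KO MDP. Dock4, a guanine nucleotide exchange factor gene, had 18 and 19 in MDP and 26 and 25 in CDP. Ccser1 had 13 and 12 in MDP and 5 and 5 in CDP, with 8 of 13 lost. Prim2, a DNA primase subunit gene, had 20 and 21 in MDP, 10 and 11 in CDP and 17 and 18 in IRF8KO MDP. The prostaglandin D2 receptor gene Ptgdr had 12 and 10 against 3 and 4, and Il20rb, an interleukin-20 receptor subunit, 13 and 11 against 4 and 5. The plotted genes were picked by gained and lost regions of these same libraries. Stages that stand apart in the plot therefore follow largely from that choice. Wwox was the exception among the genes plotted in that its stages touched, with 41 and 46 in MDP and 41 and 30 in CDP.

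**Figure D5:**
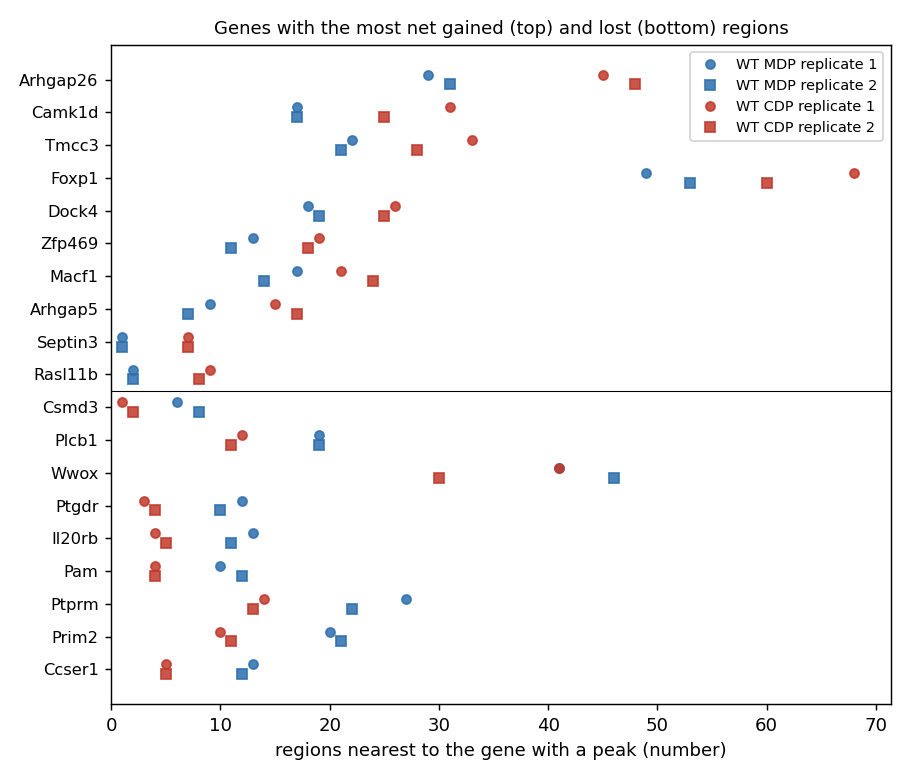
Number of regions with a peak nearest to the top 10 genes by net gain and to 9 of the top 10 by net loss of regions, in WT MDP (blue) and WT CDP (red), replicate 1 as circles and replicate 2 as squares. Septin3 went from 1 and 1 to 7 and 7 and Ccser1 from 13 and 12 to 5 and 5; Wwox had 41 in MDP replicate 1 and in CDP replicate 1.

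Gene starts under a changed region numbered 93 gained and 131 lost among genes with a RefSeq window. Of the 131 lost start regions, 62 were open in both IRF8KO MDP libraries and 41 in neither, and 100 were open in both LMPP libraries. Over all 4253 lost regions these numbers were 2565 (60.3%), 991 (23.3%) and 1806 (42.5%). Of the 93 gained, 2 were open in both IRF8KO MDP libraries and 73 in neither, and 21 in both LMPP libraries. Over all 7465 gained regions these numbers were 220 (2.95%), 6698 (89.7%) and 1006 (13.5%). Gained starts included, besides those above, Il2ra (an interleukin-2 receptor chain; CDP rows 56899 and 51280), Fgr (a Src-family kinase; 61948 and 58137) and Cd36 (a scavenger receptor; 51829 and 35001). Lost starts included Tarm1, an activating receptor of myeloid cells, at MDP rows 35548 and 31267, and Adgrg3, an adhesion receptor, at rows 32208 and 37001. The Adgrg3 start was far stronger in earlier stages, at LMPP rows 255 and 674 and LT-HSC rows 1398 and 627.

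The 10 motifs were counted, on both strands, in the bases of each window. The C/EBP palindrome TTGCNNAA was in 14.2% of 141 lost windows (Wilson 9.37 to 20.9%), 10.2% of 98 gained windows (5.64 to 17.8%) and 10.3% of all 21045 windows. Among starts open in all 4 libraries, it was in 12.2% of 597 rank lower windows (9.84 to 15.1%), 7.54% of 398 rank higher windows (5.33 to 10.6%) and 7.88% of all 11533 (7.4 to 8.39%). The PU.1 core GAGGAAGT showed the opposite order, in 0.709% of lost (0.125 to 3.91%), 5.1% of gained (2.2 to 11.4%), 2.35% of rank lower (1.4 to 3.9%) and 5.78% of rank higher windows (3.88 to 8.52%), beside 3.15% of all. The intervals of gained and lost windows, and those of higher and lower windows, overlapped for both motifs. The ETS-IRF composite was in 9.18% of gained, 7.8% of lost and 7.6% of all windows. Matches to different motifs may share letters, and a gene may have several windows. These windows cover a small part of the changed regions, 93 of 7465 gained and 131 of 4253 lost. The regions over any RefSeq start were a larger set, 148 gained (1.98%) and 179 lost (4.21%).

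At 1 microRNA locus of the myeloid lineage, both kinds of change stood side by side. Mir223 (GRCm38.p6, plus strand) encodes a microRNA abundant in neutrophils and monocytes, shown here with its seed, bases 2 to 8, in capitals.
miR-223-3p chrX:96242884-96242905 (plus strand): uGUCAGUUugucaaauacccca
A region over the hairpin was gained, at CDP rows 61254 and 42611, but both LMPP libraries and both IRF8KO MDP libraries also had a peak there. A shared region centred 2.52 kb downstream of the hairpin start stood lower in CDP, with rows 5147 and 5694 in MDP, 21243 and 14491 in CDP, and 7207 and 4202 in IRF8KO MDP. A shared region at 13.9 kb stood higher, with rows 52299 and 62285 in MDP and 36970 and 32213 in CDP. This locus was chosen after its values were seen.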

How the data were processed

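ATAC-seq peak lists of the 10 libraries were used. The tools named in the submitters' processing notes were Bowtie 1.1.2 and HOMER 4.9, with mm10 (GRCm38) as the build. Per the file headers, the authors called peaks with HOMER in each library alone, at a peak size of 500 bp, with peaks at least 1000 bp apart, a false discovery rate of 0.001, 4-fold local enrichment and at most 1 tag per bp. The sources used here do not state whether reads were shifted for the transposase. The score the authors deposited was 1 in every row, so the lists carry positions and row order and no tag counts per peak. Rows fell into blocks in which chromosomes and positions restart (95.7 to 96.6% of the rows in blocks of over 15 chromosomes), which were treated as tied ranks.

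Peaks on chromosomes 1 to 19 and X were merged at 1 bp (Python 3.11.15, pandas 2.3.3, scipy 1.17.1), and the counting was tested on simulated lists. No blacklist was applied. Genes were the 21631 protein-coding genes of RefSeq GRCm38.p6, by span. That table has no strand, so gene ends within 1 kb replaced planned start sites. Start windows covered 17274 of them (79.9%). That is short of the coverage set as sufficient, and for list genes 397 of 510 (77.8%), so start and motif shares describe only the genes covered. Regions and genes are not replicates, and no p-value over them is given. Replicate libraries may differ technically as well as biologically. The comparison, the 23 gene lists, the motifs and the naming rule were chosen with earlier results of these data known.

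Named were the top 10 genes by net gain and the top 10 by net loss of regions, list members with at least 2 net changes at both list lengths, a set of fixed genes, the genes nearest to the 10 changed regions of best rank in each direction, and list genes with a changed start. Some genes that the rule picks are left out here. Other genes in the text were chosen after their values were seen.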

Additional observations from a re-analysis of the deposited data

Results flagged for a closer look

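Peaks on chromosome Y lie outside the comparison, which used chromosomes 1 to 19 and X, and were listed in all 4 libraries. WT MDP replicates 1 and 2 had 10 and 19 such peaks, and WT CDP replicates 1 and 2 had 10 and 15. The other 6 libraries had between 8 and 16. The stages overlapped in this number.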

How the results depend on the processing

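Of 70 alternatives for the region counts and shares, 42 left the value within its limits and 28 moved it. The surplus of gained over lost regions at equal length turned when either MDP library was left out. That of rank higher over rank lower regions turned without a margin and with row order in place of tied blocks (5308 against 5310). It also turned without WT CDP replicate 1 (7309 against 7399) and without replicate 2 (7513 against 7526). Gained and lost regions numbered 2041 and 1876 with 20000 rows per list, and 4211 regions were gained with 40000 rows. Leaving out 1 library in turn gave 10220 to 12896 gained and 5471 to 8340 lost regions in full lists, 8550 to 9216 and 6793 to 9015 at equal length, and 7309 to 8867 rank higher and 7399 to 8684 rank lower regions, as fewer libraries must agree. Without a margin in rank, 14012 regions stood higher and 14773 lower, and with 20 points 2183 and 2164. The share at a gene end within 2500 bp was 12.1% for gained and 13.4% for lost regions, and over a RefSeq start 1.98% and 4.21%. LMPP detected 18.9% of gained and 49.3% of lost regions at equal length, and 18.7% and 48.8% between rows 30000 and 50000, where IRF8KO MDP detected 77.7% of lost regions. The row band, RefSeq starts, unmerged peaks at 50% overlap, whole tied blocks and row-order ties were chosen after seeing the data; whole tied blocks gave 6098 gained and 4779 lost. Requiring a peak to cover 50% of the smaller of peak and region changes nothing, since a peak lies inside its merged region.

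Of 138 alternatives for the gene lists, 54 moved the net. Of 23 lists, 19 kept the sign of their net under every alternative. T and NK cell genes had 0 at equal length and housekeeping genes 0 with genes within 20 kb. Interferon response genes had a net of -2 without WT CDP replicate 1. Endothelial and stromal genes had -4 at equal length, and -2 (without WT MDP replicate 2) to 8 with 1 library left out. Of 77 named genes, Msrb3 reversed, with -1 at equal length and -2 without WT MDP replicate 1; the cause was not tested. No paired analysis was possible because the result comes from no test; the rule already asks for one direction in both replicates. Depth limits the weak end of the lists, where most gained and lost regions lay.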
